A study of Mus musculus with 16 samples.

Results

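Annexins are proteins that bind membrane lipids in a calcium-dependent way, and the account below covers the mRNAs of 8 of them, Anxa1, Anxa2, Anxa3, Anxa4, Anxa5, Anxa6, Anxa7 and Anxa11, in splenic dendritic cells. The members were taken by gene symbol from a table of raw counts with 24421 genes, which holds 12 annexin symbols. All 8 passed the filter on low counts, as did 11978 genes of the table. The libraries are bulk RNA-seq of cDC1s, the conventional dendritic cells that present antigen to CD8 T cells, sorted from the spleens of C57BL6 mice. The cells were left at steady state, and each sort gave 5000 to 50000 cells. The 16 libraries form 4 groups of 4, named by genotype and maturation stage: Xbp1flIre1fl mature, Xbp1flIre1fl immature, Xbp1fl mature and Xbp1fl immature. Xbp1 and Ire1 act in the unfolded protein response, Ire1 as the sensor that splices the mRNA of the transcription factor Xbp1. The alleles are floxed in the mice of these groups (Xbp1 in all 4, Ire1 in those named Xbp1flIre1fl), and the labels give the condition of every library as WT. The sort gates that separated the stages are not given in the sources used here, and the labels do not say that replicates are separate mice. The p-values therefore measure the spread between these libraries, which may be technical.

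A conserved core of annexin repeats holds the calcium ions through which these proteins dock on negatively charged phospholipids such as phosphatidylserine. Annexins gather at the inner face of the plasma membrane and on endosomes, where they organise lipid domains, link membrane to the actin cortex, assist fusion and exocytosis, and help to seal membrane lesions. Some also act outside the cell: annexin A1 signals through formyl peptide receptors and dampens inflammation, annexin A2 with S100A10 binds plasminogen at the cell surface, and annexin A5 binds the phosphatidylserine that dying cells expose. Dendritic cells take up antigen and dying cells when immature, and on maturation raise Ccr7, the receptor that guides them to lymph nodes.

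Maturation stage separated the annexins into a group with more mRNA and a group with less. Of the 8 genes, 5 were higher in mature than in immature cDC1s (Anxa3, Anxa4, Anxa5, Anxa7 and Anxa2), 2 were lower (Anxa1 and Anxa6), and Anxa11 was not called. Anxa3 moved most, 75.7-fold higher in mature cells, and Anxa4 was 5.03-fold higher, whereas Anxa1 was 2.73-fold lower and Anxa6 1.65-fold lower. The calls used the quasi-likelihood test of edgeR over all genes at an adjusted p under 0.05, and at that threshold 33.4% of the 11978 genes tested were higher and 34.2% were lower. The share of annexins called was thus set against a comparison in which most genes were called. The median log2 fold change of the 8 annexins was 0.31, against -0.01 over all genes tested. With libraries scaled by their total counts only, the median of all genes stood at -0.23, Anxa2 and Anxa7 were no longer called, and Anxa11 turned to -0.10. In these bulk samples fewer cells of a type and less RNA per cell cannot be told apart.

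**Figure D1:**
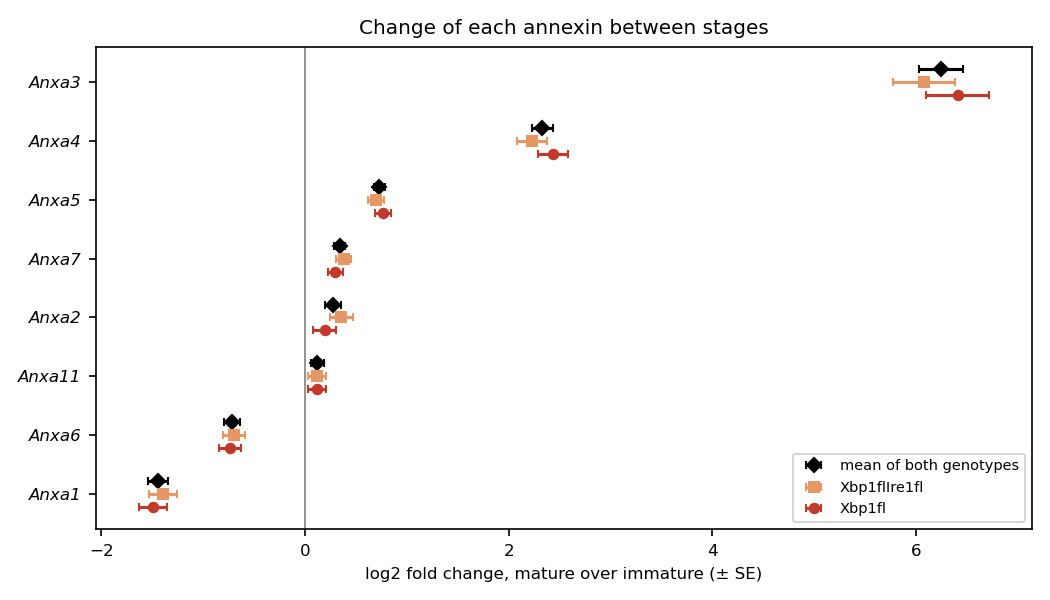
Log2 fold change of each annexin, mature over immature, with its standard error (SE), as the mean of both genotypes (black diamonds), in Xbp1flIre1fl (orange squares) and in Xbp1fl (red circles). Anxa3 stands at 6.24 and Anxa4 at 2.33, Anxa1 at -1.45 and Anxa6 at -0.72, and in each gene the values of both genotypes have the same sign with the TMM scaling plotted; with library sizes only Anxa2 (0.14 in Xbp1flIre1fl and -0.04 in Xbp1fl) does not.

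Promoter sequence is shown for Anxa4 and Anxa1, the members with the largest rise and the largest fall among those with an entry in the RefSeq promoter table (GRCm38.p6, 250 bases before to 50 bases after the annotated start). That table matched 6 of the 8 members, Anxa1, Anxa2, Anxa4, Anxa5, Anxa7 and Anxa11. The windows are given 5′ to 3′ on the gene's strand, minus for both genes. The table has 2 starts for Anxa4, and the upstream start is shown. Capitals in the Anxa4 window, chr6:86793535-86793834, mark a match to a strict NF-kB pattern, GGG and TTTCC with any 2 bases between them. Capitals in the Anxa1 window, chr19:20390622-20390921, mark the TATA box TATAAA.
Anxa4: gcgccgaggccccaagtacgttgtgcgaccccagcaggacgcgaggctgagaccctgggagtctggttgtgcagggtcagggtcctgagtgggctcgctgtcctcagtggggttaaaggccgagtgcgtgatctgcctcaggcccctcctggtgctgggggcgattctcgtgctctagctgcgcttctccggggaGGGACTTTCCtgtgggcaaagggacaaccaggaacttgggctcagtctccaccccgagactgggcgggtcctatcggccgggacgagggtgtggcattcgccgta
Anxa1: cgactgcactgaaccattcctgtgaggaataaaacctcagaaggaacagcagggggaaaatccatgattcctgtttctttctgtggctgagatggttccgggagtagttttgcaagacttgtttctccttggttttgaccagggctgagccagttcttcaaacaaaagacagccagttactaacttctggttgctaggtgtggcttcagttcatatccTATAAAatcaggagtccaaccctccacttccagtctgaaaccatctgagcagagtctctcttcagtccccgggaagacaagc

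The NF-kB match of Anxa4, GGGACTTTCC, began 55 bases before the annotated start, and the window of the other Anxa4 start did not hold these letters. NF-kB is a family of transcription factors activated in dendritic cell maturation. The strict pattern was searched on both strands and is present in 525 of 32544 promoters of the table (1.61%), whereas a looser NF-kB pattern with 5 free bases between GGG and CC is present in 51.0%. The looser pattern was met in a window of each of the 6 members. In Anxa1 these were GGGAAAATCC and GGGCTGAGCC, 197 and 109 bases before the start. The Anxa1 window has its TATAAA 32 bases before the start, a sequence found in 13.6% of promoters. Anxa2 also had TATAAA, 17 bases before its start. The windows differ in base composition as well: Anxa4 has 65.3% G and C with 20 CpG sites, and Anxa1 has 47.3% with 3 CpG sites, beside a median of 53.0% and 7 CpG sites over all promoters. On both strands the other letters searched were TGANTCA (AP-1, 7.79% of promoters), AGGAAG (ETS, 35.1%), CACGTG (E-box, 7.17%), TGACGTCA (CRE, 1.80%), an IRF pattern with a pair of GAAA spaced by 2 bases (3.45%) and the LXR DR4 pattern (0.0154%), a direct repeat of AGGTCA spaced by 4 bases. Anxa2 had the AP-1 match TGAGTCA 95 bases before its start. The ETS letters were met 112 bases before the other Anxa4 start and, on the reverse strand, 112 bases before the Anxa11 start. The E-box letters were met 113 bases before an Anxa7 start. No window of the 6 members held the IRF, LXR or CRE letters. These matches are letters in a window and were not measured as binding sites here.

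Anxa3 gave the widest separation between stages. Annexin A3 is known best as an abundant protein of neutrophil granules and membranes, and its gene lies at chr5:96793339-96845966 on the plus strand. In mature cDC1s its level, in TMM-scaled CPM (counts per 1e6 counts), was 257.0, 149.7, 234.3 and 108.6 in Xbp1flIre1fl replicates 1 to 4 and 160.9, 198.1, 215.7 and 205.8 in Xbp1fl replicates 1 to 4. In immature cDC1s it was 2.67, 2.58, 2.88 and 2.96 CPM in Xbp1flIre1fl and 1.82, 1.69, 3.77 and 1.88 CPM in Xbp1fl. The lowest mature library stood far above the highest immature library, and the widest spread was among the mature Xbp1flIre1fl libraries. The means were 191.3 ± 48.6 CPM in mature and 2.53 ± 0.707 CPM in immature cells (SD, n = 8 each), a log2 fold change of 6.24 ± 0.22 (SE) with an adjusted p of 1.5e-11. This was the 54th largest rise among the 11978 genes. The 8 immature libraries held 354 Anxa3 counts in all and the 8 mature libraries 21996, so the immature level rests on few reads per library.

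The mean immature level of Anxa3 was 1.32% of its mature mean. The same ratio was 1.88% for Ccr7, 0.494% for Fscn1, an actin-bundling protein of mature dendritic cells, and 0.832% for Cd63, a tetraspanin of late endosomes. The immature library with the highest Anxa3, Xbp1fl replicate 3 at 3.77 CPM, also had the highest Ccr7 of the immature libraries, 320.4 CPM, and whether that library holds some mature cells was not tested. Neutrophil markers were checked beside Anxa3. Of 7 neutrophil markers tested, 0 were higher and 1 was lower in mature cells, beside 33.4% higher and 34.2% lower over all genes tested. The SE of their log2 fold changes was wide, from 0.80 for S100a8 to 1.03 for Ngp, which leaves little room for calls. The neutrophil marker sum ranged over 0.275 to 52.5 CPM in mature and 5.54 to 63.9 CPM in immature libraries. The part of neutrophils in the Anxa3 difference was not tested. In mature Xbp1flIre1fl replicates 1 to 4 that sum was 1.82, 45.4, 0.386 and 0.945 CPM.

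Anxa4 (chr6:86736840-86793584, minus strand) encodes annexin A4, a calcium sensor of secretory epithelia and a participant in membrane repair. It measured 333.9, 204.8, 351.7 and 220.6 CPM in the mature Xbp1flIre1fl libraries and 282.4, 308.6, 346.4 and 325.6 CPM in the mature Xbp1fl libraries. In immature cells the values were 58.3, 52.7, 63.9 and 62.0 CPM in Xbp1flIre1fl and 56.7, 57.6, 59.9 and 59.7 CPM in Xbp1fl. No mature library came near the immature range, and the immature libraries lay close together. The means were 296.8 ± 56.4 CPM in mature and 58.9 ± 3.4 CPM in immature cells (SD, n = 8 each), with a log2 fold change of 2.33 ± 0.10 (SE, adjusted p = 2e-11).

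Anxa1 moved the other way. Annexin A1 (chr19:20373428-20390944, minus strand) is induced by glucocorticoids and limits phospholipase A2 activity and leukocyte recruitment. Its level was 64.5, 94.2, 50.7 and 88.4 CPM in mature Xbp1flIre1fl libraries and 71.7, 79.9, 76.1 and 71.7 CPM in mature Xbp1fl libraries. Immature cells had 188.8, 183.3, 214.7 and 197.9 CPM in Xbp1flIre1fl and 217.6, 223.6, 207.5 and 197.2 CPM in Xbp1fl. The stages did not overlap: the highest mature value was 94.2 CPM and the lowest immature value 183.3 CPM. The means of 74.7 ± 13.6 CPM in mature and 203.8 ± 14.3 CPM in immature cells (SD, n = 8 each) gave a log2 fold change of -1.45 ± 0.10 (SE, adjusted p = 1.4e-09). This was the 31st most negative log2 fold change of the 11978 genes.

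Anxa6 had the highest level of the family in both stages. Annexin A6 (chr11:54979108-55033445, minus strand, 26 exons in its longest transcript) differs from the other members in carrying a tandem pair of annexin cores, and it acts in late endosomes, in cholesterol transport and in membrane repair. Levels were 613.7, 835.4, 532.3 and 839.0 CPM in mature Xbp1flIre1fl and 725.6, 744.7, 664.2 and 686.0 CPM in mature Xbp1fl libraries. They were 1171.7, 1134.0, 1159.3 and 1114.0 CPM in immature Xbp1flIre1fl and 1197.2, 1156.5, 1199.9 and 1148.2 CPM in immature Xbp1fl libraries. The immature values were nearly even, with a coefficient of variation (CV) of 2.53%, while the mature values had a CV of 14.9%. The log2 fold change was -0.72 ± 0.08 (SE, adjusted p = 2.8e-07).

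Anxa5 rose by less. Annexin A5 (chr3:36448923-36475894, minus strand) forms lattices on phosphatidylserine-rich membrane and is the probe used to stain dying cells. It ranged over 360.4 to 479.9 CPM (median 420.0) in the 8 mature and 240.1 to 270.4 CPM (median 252.6) in the 8 immature libraries, without overlap. The log2 fold change was 0.73 ± 0.05 (SE, adjusted p = 2.6e-09). Anxa7 (chr14:20455260-20480133, minus strand), or synexin, promotes fusion of secretory vesicles and binds sorcin. It ranged over 144.3 to 176.7 CPM (median 159.6) in mature and 115.6 to 137.1 CPM (median 127.2) in immature libraries. With TMM scaling these ranges did not overlap either, and the log2 fold change was 0.34 ± 0.05 (SE, adjusted p = 2.1e-05).

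Anxa2 and Anxa11 separated the stages least. Annexin A2 (chr9:69453620-69491795, plus strand) links membrane to the actin cortex and acts in endosome and secretory traffic. Anxa2 measured 217.8, 149.0, 205.8 and 184.1 CPM in mature Xbp1flIre1fl and 155.7, 191.1, 200.9 and 175.6 CPM in mature Xbp1fl libraries, against 130.2 to 155.5 CPM in immature Xbp1flIre1fl and 130.4 to 179.3 CPM in immature Xbp1fl libraries. The stages overlapped, and 5 of 8 mature libraries were above every immature library. Its log2 fold change was 0.27 ± 0.08 (SE, adjusted p = 0.0068), and upper quartile scaling brought it to 0.15 (adjusted p = 0.0983). Annexin A11 (chr14:25842156-25886804, plus strand) tethers RNA granules to lysosomes for transport and binds the calcium sensor encoded by Pdcd6. Anxa11 averaged 45.5 ± 3.2 CPM in mature and 41.9 ± 3.78 CPM in immature cells (SD, n = 8 each), a log2 fold change of 0.12 with a 95% interval of -0.02 to 0.26 and an adjusted p of 0.0994. It passed the threshold when immature Xbp1flIre1fl replicate 1 was left out (0.15, adjusted p = 0.0395).

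With TMM scaling the stages did not overlap in 6 of the 8 annexins, all except Anxa2 and Anxa11. In each of those 6 the 8 mature libraries lay wholly above or wholly below the 8 immature libraries. Over all genes tested, 33.0% separated the stages in this way. For Anxa7 the separation depended on the scaling. Mature Xbp1fl replicate 2 had 2203 Anxa7 counts of 16572576. Immature Xbp1fl replicate 1 had 2418 of 16281203, a larger count in a smaller library.

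**Figure D2:**
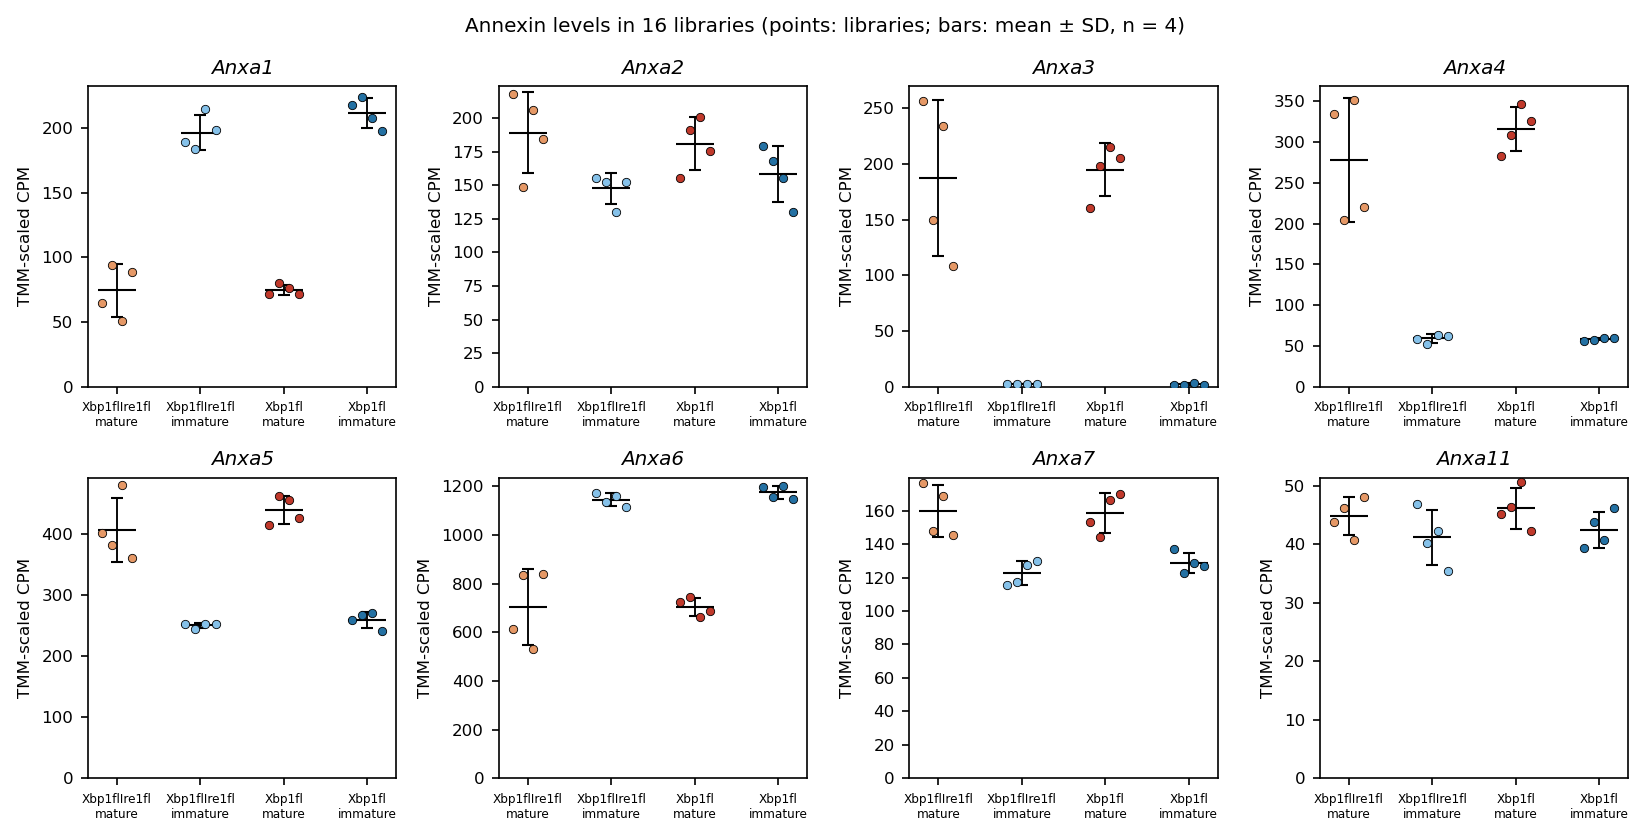
TMM-scaled CPM of the 8 annexins in each of the 16 libraries (points), with the mean and SD of each group of 4 (bars), on axes that start at 0. The groups run Xbp1flIre1fl mature, Xbp1flIre1fl immature, Xbp1fl mature, Xbp1fl immature, and Anxa3 is between 1.69 and 3.77 CPM in the immature libraries and between 108.6 and 257.0 CPM in the mature ones.

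Other annexin symbols of the table were at or near 0. Anxa9 had 70 counts in the 8 mature and 70 in the 8 immature libraries and was tested, with a log2 fold change of 0.26 ± 0.34 (SE, adjusted p = 0.514). Anxa8 had 1 count in mature and 1 in immature cells, Anxa10 had 1 in mature and 0 in immature cells, and Anxa13 had 0 in both. For a gene with 0 counts, the 3 counts that such a result allows correspond to 0.176 to 0.215 CPM per library. This limit uses library totals without TMM scaling and covers counting error only.

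Divided by the length of the longest coding transcript (CPM per kb), the levels of different annexins could be ordered within a stage. In mature cells the per-length level ran Anxa6 (283.3 ± 42.2), Anxa5 (244.1 ± 23.8), Anxa4 (146.2 ± 27.8), Anxa2 (127.8 ± 16.6), Anxa3 (119.9 ± 30.4), Anxa7 (54.8 ± 4.42), Anxa1 (44.6 ± 8.13) and Anxa11 (19.0 ± 1.34) CPM per kb (SD, n = 8). Ranges over libraries overlapped between Anxa6 and Anxa5, among Anxa4, Anxa2 and Anxa3, and between Anxa7 and Anxa1. The level of Anxa3 depended on the length used, though its place in the order by mean did not. Over the union of its exons, 2630 bases in place of 1595, Anxa3 had 72.7 ± 18.5 CPM per kb in mature cells (SD, n = 8). Its range of 41.3 to 97.7 CPM per kb then lay below that of Anxa2 (103.0 to 150.5) and overlapped that of Anxa7 (47.6 to 58.3). In immature cells the order was Anxa6 (466.1 ± 11.8), Anxa5 (147.1 ± 6.05), Anxa1 (121.8 ± 8.56), Anxa2 (105.8 ± 11.6), Anxa7 (43.3 ± 2.39), Anxa4 (29.0 ± 1.67), Anxa11 (17.5 ± 1.58) and Anxa3 (1.59 ± 0.443) CPM per kb (SD, n = 8). Anxa1 and Anxa2 were the only neighbours there whose ranges overlapped. Anxa4 thus stood above Anxa2, Anxa7 and Anxa1 by mean in mature cells and below all of them in immature cells, and Anxa3 stood above Anxa7, Anxa1 and Anxa11 in mature cells and last in immature cells.

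Summed over the 8 genes, the per-length level changed little beside the turnover of its parts. With TMM scaling it was 1039.7 ± 50.6 CPM per kb in mature and 932.1 ± 30.5 CPM per kb in immature cells (SD, n = 8 each). Over the union of exons the sums were 977.4 ± 40.6 and 912.4 ± 29.7 CPM per kb. The TMM factors ran from 0.886 to 1 in mature and from 1.06 to 1.12 in immature libraries, so this difference depends on the scaling. Anxa6 made up 27.4 ± 5.15% of the sum in mature cells (SD, n = 8), and between 48.5% and 51.2% in the immature libraries. Anxa1 made up 4.32 ± 0.927% in mature and 13.1 ± 0.656% in immature cells. Anxa3 and Anxa4 took the opposite course, with 11.5 ± 2.54% and 14.0 ± 2.17% in mature cells, against 0.17 ± 0.0472% and 3.11 ± 0.208% in immature cells. With exon-union lengths Anxa3 held 7.4 ± 1.71% in mature and 0.106 ± 0.0293% in immature cells. Anxa5 held 23.5 ± 1.58% in mature and 15.8 ± 0.342% in immature cells, and Anxa11 held 1.83 ± 0.162% and 1.88 ± 0.186%. Shares sum to 100%, so they are not independent of each other.

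**Figure D3:**
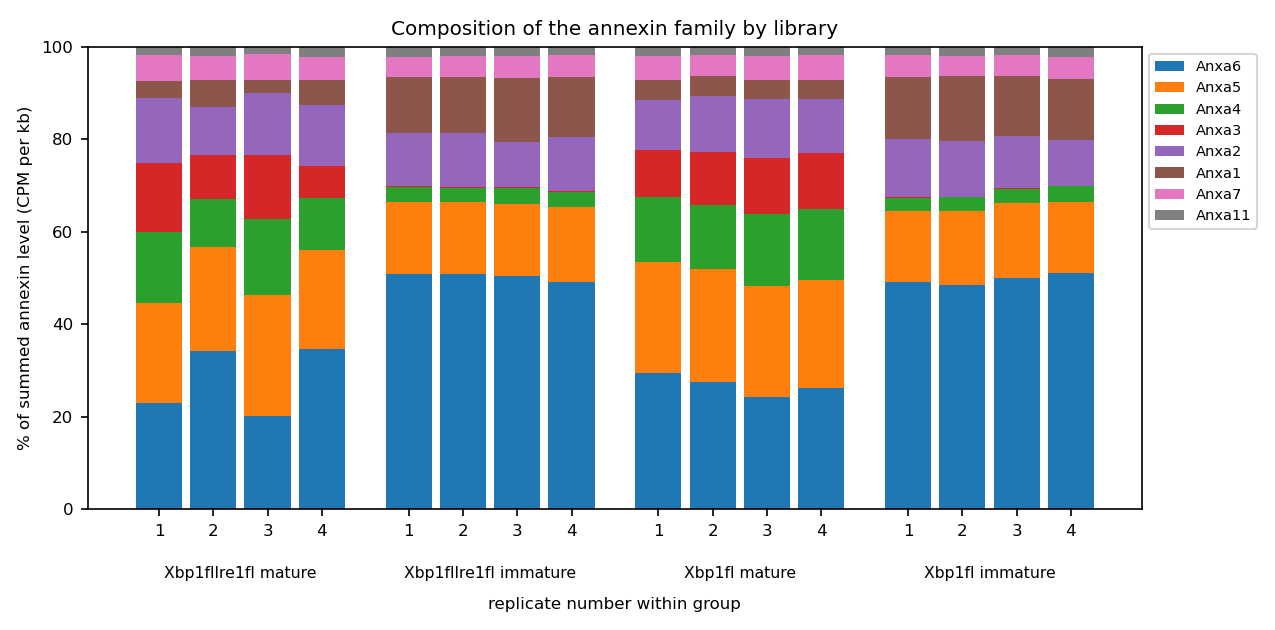
Share of each annexin in the summed per-length level of the 8 genes, by library, as a percentage of CPM per kb. Anxa6 lies between 20.2% and 34.7% in mature libraries and between 48.5% and 51.2% in immature libraries, and the Anxa3 and Anxa4 segments are wide in mature libraries only.

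With TMM scaling the stage differences had the same direction in both genotypes. With library sizes only Anxa2 was at 0.14 in Xbp1flIre1fl and -0.04 in Xbp1fl, and Anxa11 at -0.09 in Xbp1flIre1fl and -0.12 in Xbp1fl, none of them called. With upper quartile scaling Anxa11 was at 0.00 in Xbp1flIre1fl and -0.01 in Xbp1fl. In Xbp1flIre1fl mice 7 of 8 annexins were called between stages, where 53.5% of all genes tested were called, and in Xbp1fl mice 6 of 8, where 56.8% were called. The log2 fold change of Anxa3 was 6.07 ± 0.30 in Xbp1flIre1fl and 6.41 ± 0.31 in Xbp1fl (SE), that of Anxa4 2.23 in Xbp1flIre1fl and 2.43 in Xbp1fl, and that of Anxa1 -1.40 in Xbp1flIre1fl and -1.50 in Xbp1fl. Anxa2 was the gene called in Xbp1flIre1fl alone, at 0.36 (adjusted p = 0.0152), against 0.19 in Xbp1fl (adjusted p = 0.17). That call was lost without mature Xbp1flIre1fl replicate 1 (0.28, adjusted p = 0.0632) or without immature Xbp1flIre1fl replicate 3 (0.30, adjusted p = 0.0556). The difference between the genotypes was itself tested as an interaction of stage and genotype. The edgeR test called 0 of 8 annexins and 0.0% of all genes, DESeq2 also called 0 of each, and at an unadjusted p under 0.05 there were 329 genes and 0 annexins. For Anxa2 the interaction was 0.17 (95% interval -0.19 to 0.52), and for Anxa3 it was -0.34 (95% interval -1.28 to 0.61), the widest of the 8.

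Within a stage the genotypes were not told apart by any annexin. In mature cells 0 of 8 annexins were called for Xbp1flIre1fl against Xbp1fl, beside 0.142% of all genes tested. In immature cells 0 of 8 were called, beside 0.134% of all genes tested. At an unadjusted p under 0.05 there were 754 genes in mature and 573 in immature cells, with 0 annexins in either, and DESeq2 called 36 genes in mature and 40 in immature cells, again with 0 annexins. The 95% intervals state what these libraries leave possible. In mature cells the log2 difference of Anxa3 was -0.06 (-0.54 to 0.42) and that of Anxa4 -0.19 (-0.49 to 0.11). In immature cells that of Anxa3 was 0.28 (-0.54 to 1.09) and that of Anxa1 -0.11 (-0.40 to 0.18).

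The mature Xbp1flIre1fl libraries spread more widely than the mature Xbp1fl libraries in every annexin except Anxa11. Replicates 1 and 3 had the highest Anxa3 of the 16 libraries, 257.0 and 234.3 CPM, and replicates 2 and 4 the lowest Anxa3 of the mature libraries, 149.7 and 108.6 CPM. Ccr7 ran the same way in this group, with 11920.8, 6573.8, 13424.9 and 4987.8 CPM in replicates 1 to 4, against 8001.5 to 11581.1 CPM in mature Xbp1fl libraries. For Anxa1, Anxa3, Anxa4, Anxa5 and Anxa6, replicates 2 and 4 were nearer the immature level than all other mature libraries. The CV over this group was 37.3% for Anxa3, 27.4% for Anxa1, 27.3% for Anxa4 and 22.1% for Anxa6, against 12.3%, 5.28%, 8.57% and 5.19% in mature Xbp1fl libraries. Fitted without replicates 2 and 4, which were chosen by their values, Anxa6 was lower in mature Xbp1flIre1fl than in mature Xbp1fl cells (log2 difference -0.30, adjusted p = 0.0403), whereas with all libraries that difference was 0.00.

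Across the 16 libraries, after subtraction of each group's mean, Anxa1 and Anxa6 deviated together (r = 0.92), and Anxa3, Anxa4, Anxa5 and Anxa7 deviated together with r between 0.35 and 0.76. Between these sets r ran from -0.91 to -0.52. Over the 12 libraries outside the mature Xbp1flIre1fl group, r was 0.22 for Anxa1 with Anxa6, -0.09 to 0.57 within the other set and -0.55 to 0.67 between sets, so the pattern over 16 libraries rests on that group. The points share library, depth and sort, and the correlations are descriptions.

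**Figure D4:**
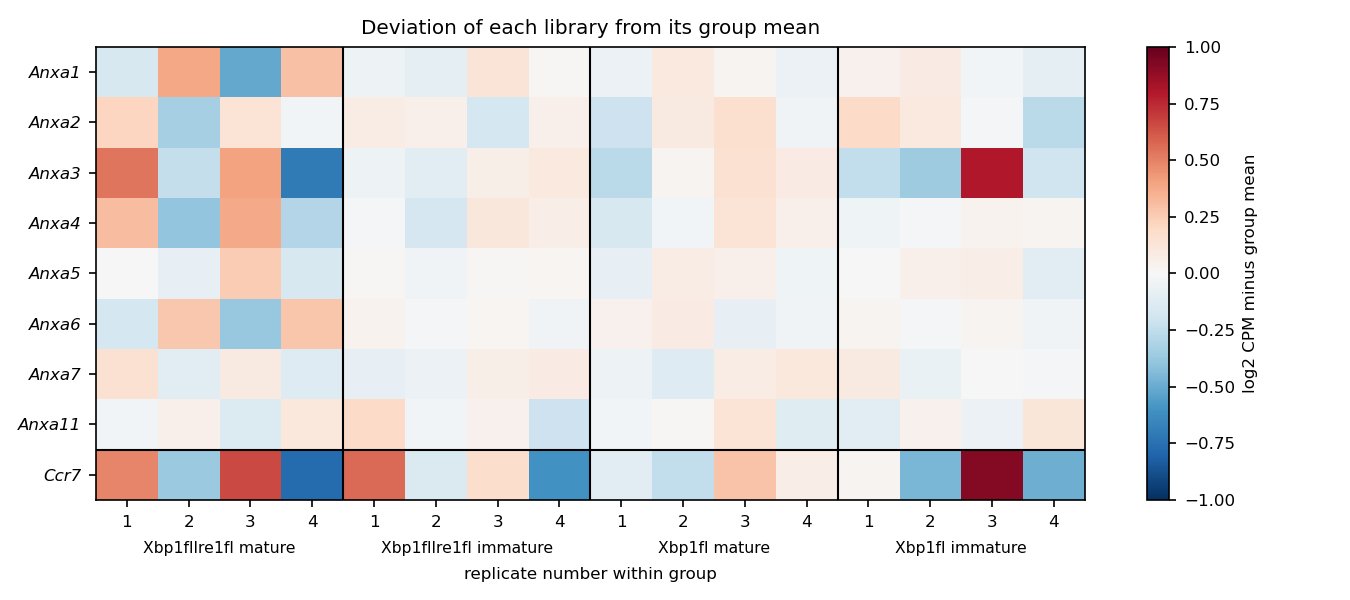
Deviation of each library from the mean of its own group, in log2 CPM, for the 8 annexins and for Ccr7 (bottom row), with libraries in columns. In mature Xbp1flIre1fl replicates 2 and 4 Anxa1 and Anxa6 are above and Anxa3 and Anxa4 below the group mean, the reverse of replicates 1 and 3, and immature Xbp1fl replicate 3 stands out for Anxa3 and Ccr7.

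Genes whose within-group deviations were most like those of Anxa3, Anxa4, Anxa1 and Anxa5, the members with the largest absolute stage differences under TMM, were sought among 7881 genes averaging at least 10 CPM. For Anxa3 these were Cd63 (r = 0.93 over 16 libraries and 0.91 over the 12 outside the mature Xbp1flIre1fl group), Mpnd (0.88 and 0.83) and Tspan3 (0.88 and 0.78). For Anxa4 they were Wdr91 (0.97 and 0.90), Arhgef40 (0.96 and 0.88) and Dok1 (0.96 and 0.82). For Anxa1 they were Tifab (0.96 and 0.71), Unc93b1 (0.95 and 0.61), the chaperone of endosomal Toll-like receptors, and Naaa (0.95 and 0.45), a lysosomal amidase. For Anxa5 they were Dcaf11 (0.94 and 0.79), Prcp (0.91 and 0.77) and Pgap2 (0.91 and 0.72). With upper quartile scaling or library sizes only, Anxa6 had a larger stage difference than Anxa5. Its most similar genes, named here after their values were seen, were Gsn (0.98 and 0.83), which encodes the actin-severing protein gelsolin, Ldha (0.98 and 0.71) and Slc35c2 (0.98 and 0.73). The likeness of Anxa3 to Cd63 was little changed without the mature Xbp1flIre1fl libraries, and that of Anxa1 to Naaa was far weaker. The 12 libraries left include immature Xbp1fl replicate 3, which stood apart for Anxa3 (3.77 CPM, the others of its group 1.69 to 1.88 CPM). Cd63 was also low in immature cells, at a mean of 2.96 CPM. Its likeness to Anxa3 was not computed without that library.

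Genes for proteins that annexins bind were counted beside all genes. Of 9 binding partners tested, 2 were higher and 4 lower in mature cells (5 lower with library sizes only), with a median log2 fold change of -0.02, beside 33.4% higher, 34.2% lower and a median of -0.01 over all genes. These counts are near the background and say nothing particular about the partners. S100a10, the partner of annexin A2, was lower, with a mean of 11.1 ± 2.59 CPM in mature cells against 16.7 ± 1.7 CPM in immature cells (log2 fold change -0.61, adjusted p = 9.7e-06), while Anxa2 itself was higher with TMM scaling. Sri, which encodes the annexin A7 partner sorcin, was higher, with a mean of 345.3 ± 23.2 CPM in mature cells against 211.5 ± 6.82 CPM in immature cells (0.71, adjusted p = 5.7e-10). Pdcd6, whose product binds annexins A7 and A11, was lower (-0.31, adjusted p = 2.9e-05), as was Ahnak, a large scaffold that annexin A2 and S100A10 hold at the membrane (-0.58, adjusted p = 0.00029). S100a11, the partner of annexin A1, was not called (0.13, adjusted p = 0.1). Among the other S100 genes listed, S100a4 was higher, with a mean of 17.2 ± 6.09 CPM in mature against 6.71 ± 2.09 CPM in immature cells (1.37, adjusted p = 1e-06). S100a6 was lower (-0.24, adjusted p = 0.025). Of the receptors of annexin A1, Fpr1 alone was tested and was not called (0.67, adjusted p = 0.24), and Fpr2 had 29 counts in mature and 32 in immature libraries.

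The lists of processes in which annexins act were read against the same background of 33.4% higher and 34.2% lower. Among 17 genes of membrane repair and ESCRT-III, the complex that pinches off damaged membrane, 7 were higher and 4 lower, with a median log2 fold change of 0.11. These shares are near those of all genes. With upper quartile scaling 3 were higher and 5 lower, where over all genes 3213 were higher and 5237 lower, and with library sizes only 2 were higher and 8 lower, where over all genes 2716 were higher and 6091 lower. Capn1, a calcium-activated protease, was at 0.40, Myof at 0.50, Vps4b at 0.28 (0.05 and not called with library sizes only) and Capn2 at -0.29. Among 10 phosphatidylserine scramblases and flippases, which set the side of the membrane on which the annexin ligand lies, 2 were higher and 5 lower, or 8 lower with library sizes only. Atp11a, a flippase, averaged 85.4 CPM in mature and 28.1 CPM in immature cells (1.61), and Plscr1 was at 1.06. The flippase Atp8b4 averaged 13.7 CPM in mature and 39.7 CPM in immature cells (-1.53), and the scramblases Xkr8 and Ano6 were at -0.75 and -0.36. All the genes named here passed the threshold with TMM scaling.

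Copines, another family of calcium-dependent phospholipid-binding proteins, had 4 of 6 genes tested, of which 2 were higher and 1 lower. With upper quartile scaling or library sizes only, 1 was higher and 1 lower. The counts of this list and of those below rest on few genes. They stand beside 33.4% higher and 34.2% lower over all genes tested. Cpne2 averaged 129.7 CPM in mature and 50.7 CPM in immature cells (log2 fold change 1.35), and Cpne3 was at -0.59. Of the plasminogen system at the cell surface 4 of 6 genes were tested, and 3 were higher and 1 lower. Plat, tissue plasminogen activator, averaged 8.53 ± 2.73 CPM in mature cells (SD, n = 8) and had 6 counts over the 8 immature libraries, and Plaur and Plgrkt were higher by 1.01 and 0.68 in log2 terms. Serpinb2, an inhibitor of plasminogen activators, averaged 14.7 CPM in mature and 39.5 CPM in immature cells. Of 5 phospholipase A2 genes listed, 3 were tested and 2 were higher. Pla2g4f averaged 30.5 ± 11.2 CPM in mature cells and had 14 counts over the 8 immature libraries. Pla2g6 was at 0.69. Whether annexin A1 acts on the products of these genes was not tested. Pla2g4a, the classical member, was not called (-0.15, adjusted p = 0.32), and with library sizes only it was lower (-0.38, adjusted p = 0.0218).

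**Figure D5:**
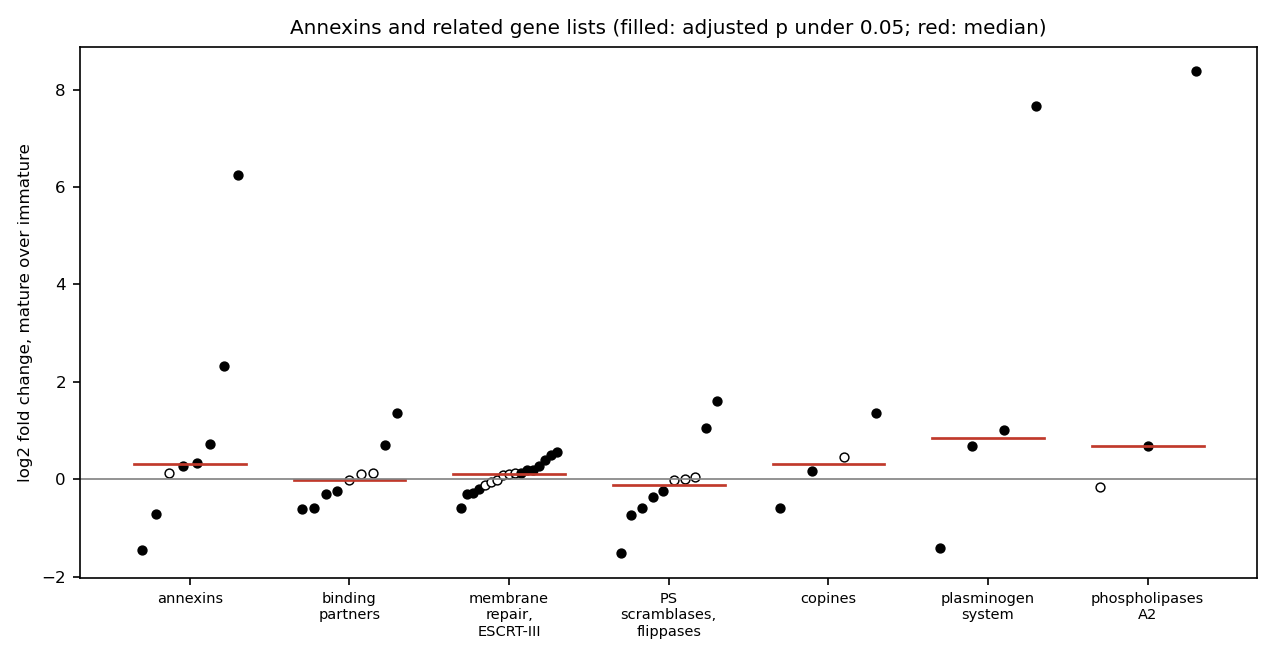
Log2 fold change, mature over immature, of every tested gene of the annexins and of 6 related lists (filled points: adjusted p under 0.05, open points: above), with the list median as a red line. PS stands for phosphatidylserine, and the medians lie between -0.13 and 0.84.

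The libraries held 13948232 to 17000763 counts. Both stages carried the cDC1 markers Xcr1 (mean 572.3 CPM in mature and 782.0 CPM in immature cells) and Clec9a (mean 159.8 CPM in mature and 199.3 CPM in immature cells). Of 8 cDC1 markers 1 was higher and 5 lower in mature cells, their sum ranging over 4004.8 to 6558.0 CPM in mature and 6852.9 to 8107.5 CPM in immature libraries. Markers of some other cells also differed between stages. All 7 B cell markers tested were higher in mature cells (273.1 to 905.7 CPM summed in mature and 95.9 to 147.6 CPM in immature libraries), as were 8 of 10 red pulp macrophage markers (565.9 to 1127.3 CPM in mature and 161.3 to 590.5 CPM in immature libraries). Of 5 cDC2 markers 4 were higher, and of 5 T cell markers 4 were higher. Of 4 plasma cell markers 2 were higher and 1 lower, of 6 monocyte markers 1 was higher and 1 lower, and of 4 pDC markers 0 were higher and 1 was lower. None of 5 NK cell, 2 erythroid and 2 platelet markers tested was called. These counts stand beside 33.4% higher and 34.2% lower over all genes tested. The part of such cells in the annexin differences was not tested. In mature Xbp1flIre1fl replicates 1 to 4, where Anxa3 was 257.0, 149.7, 234.3 and 108.6 CPM, B cell markers summed to 625.4, 273.1, 905.7 and 576.9 CPM and macrophage markers to 946.1, 565.9, 1127.3 and 949.6 CPM.

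The annexin genes share loci with other transcripts. On the opposite strand of Anxa1, 1500015L24Rik overlaps the gene and had 0 counts in every library. Anxa2 is overlapped by Gm16144 and Anxa11 by Anxa11os, both antisense, and Anxa3 by Gm42603 and Anxa4 by Gm44036; these 4 are not rows of the count table. Strand use in counting is not given in the sources used here, so reads of a gene and its antisense partner cannot be told apart. Gm42603 lies on the same strand as Anxa3, over 2146 bases of its locus, and there strand would not separate the reads.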

How the data were processed

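RNA of 16 sorted cDC1 samples was sequenced. Per the submitters' processing notes, TopHat2 2.1.0 and SAMtools 0.1.19 were used on mm10, with read checks and trimming by FastQC 0.11.4 and Trimmomatic 0.35, and limma 3.42.2; the read counter, annotation and strand use are not given in the sources used here. The authors deposited raw counts per gene symbol, used for the main test, and log2 values whose normalization is not given, used as an alternative only. Groups came from the sample titles.

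The deposited counts went into edgeR 4.0.16 under R 4.3.3: filterByExpr left 11978 genes, TMM scaled the libraries, and a quasi-likelihood model with 1 mean per group and robust estimation was fitted to all 16 libraries. Benjamini-Hochberg adjustment ran over the whole table, with calls at 0.05. Each SE was derived from the F statistic, and 95% intervals use it. DESeq2 1.42.0 and limma 3.58.1 served as alternatives, with other scalings, no filter, a replicate block and each library left out. The code was tested on simulated data. Depth was 13948232 to 17000763 counts per library. Per-length levels use GENCODE transcripts of GRCm38, and promoter patterns were searched in the RefSeq table of GRCm38.p6.

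Same-numbered mature and immature libraries of 1 genotype deviated together (r 0.29 to 0.604 over 7881 genes, 8 of 8 pairs over 0.1). Same-numbered libraries of different genotypes did not in the same way (-0.22 to 0.38, 7 of 16 over 0.1). Numbers may thus pair libraries within a genotype. The labels do not say so, and differently numbered mature and immature libraries were not compared. No pair of libraries of 1 group agreed within sampling noise. The genes named are the 8 members, the 3 most alike genes of the 4 members with the largest stage change, and members of the lists. Members, lists and tests were chosen with earlier results of these data known. No protein sequences were used here.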

Additional observations from a re-analysis of the deposited data

Results flagged for a closer look

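Within the groups of 4 libraries, 3 of 32 gene and group combinations had a library apart from the other 3 by Dixon's criterion, which chance meets in about 5% of groups. Anxa2 was lowest in immature Xbp1flIre1fl replicate 3, at 130.2 CPM, where the other libraries of the group had 152.5 to 155.5 CPM. Anxa3 was highest in immature Xbp1fl replicate 3, at 3.77 CPM, where the others had 1.69 to 1.88 CPM. Anxa5 was lowest in immature Xbp1flIre1fl replicate 2, at 243.9 CPM, where the others had 251.6 to 252.9 CPM.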

How the results depend on the processing

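Results were recomputed under 25 alternatives. Over these, the stage log2 fold changes ranged from -1.67 to -1.38 for Anxa1, 6.01 to 6.43 for Anxa3, 2.10 to 2.48 for Anxa4, 0.50 to 0.78 for Anxa5 and -0.94 to -0.66 for Anxa6, and these 5 genes kept their call in each. With library sizes only, 3 annexins were higher in place of 5: Anxa2 was at 0.05 (adjusted p = 0.596) and Anxa7 at 0.11 (adjusted p = 0.0578). Over all genes tested the same change of scaling left 2716 higher in place of 3995, and 6091 lower in place of 4100. The median of all genes was -0.01 with TMM, -0.13 with upper quartile scaling and -0.23 with library sizes only. Within Xbp1fl, library sizes brought Anxa7 to 0.06 (adjusted p = 0.468). Within Xbp1flIre1fl they brought Anxa7 to 0.16 (adjusted p = 0.0624) and Anxa2 to 0.14 (adjusted p = 0.282), and upper quartile scaling brought Anxa2 to 0.24 (adjusted p = 0.0815). Without mature Xbp1flIre1fl replicates 2 and 4, 1 annexin was called between genotypes in mature cells in place of 0, Anxa6 at -0.30. The gene lists were recounted under the other scalings after seeing the data. The cause of these changes was not tested. Leaving out each library in turn gave 5 to 6 annexins higher, 2 lower, 6 called within Xbp1fl, 6 to 7 within Xbp1flIre1fl, and 0 in the interaction and both genotype comparisons. With the replicate block, and with a replicate block within genotype chosen after seeing the data, 5 were higher and 2 lower, 6 were called within Xbp1fl, 7 within Xbp1flIre1fl and 0 for the interaction, so the block changed no call. Genotype comparisons could not be fitted with the block within genotype. Among comparisons called neither in the main fit nor in the alternative set beside it, 53 of 682 differed in sign. Depth limits the values that rest on few counts, such as Anxa9 with 70 counts per stage and immature Anxa3 with 354. Exon-union lengths were an alternative chosen after seeing the data.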
